A study of Mus musculus with 7 samples.

Results

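The autophagy machinery was described here as 41 genes of the 57180 in the deposited mouse count table. They were chosen by name, from symbols beginning with Atg and a number, Map1lc3 or Gabarap, from Wipi1, Wipi2 and Ulk1 to Ulk4, and from Becn1, Sqstm1, Rb1cc1, Optn, Nbr1, Tax1bp1, Pik3c3, Pik3r4, Uvrag and Ambra1. The choice was by symbol and used no values, though earlier results of these data were known when it was made. Of the 41, 39 had enough counts to be tested. The other 2, the pseudogene Atg4a-ps with at most 6 counts in a library and Atg5lrt with 0 counts in all 7, were not tested.

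The study sorted regulatory T cells (Treg cells, the suppressive CD4 lineage specified by the transcription factor FOXP3) from the lymphocytes infiltrating B16-F0 melanomas, a transplantable mouse tumour. The populations compared were labelled Foxp3 low (n = 4 libraries) and Foxp3 high (n = 3 libraries), written FOXP3-low and FOXP3-high below. All 7 came from tumours of Foxp3-Cre-YFP mice, in which Cre recombinase and yellow fluorescent protein are made from the Foxp3 gene, and all carry the genotype label WT. The labels name no age, no sort gates and no separate animals, and p-values therefore reflect the spread among these 7 libraries alone, possibly technical.

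Autophagy encloses cytoplasm in a double membrane, the autophagosome, which fuses with the lysosome so that its content is digested. The ULK1 kinase complex starts the process, a class III PI3 kinase complex marks the membrane with the lipid PI3P, and ubiquitin-like conjugation then attaches ATG8 proteins (the LC3 and GABARAP families) to it, where cargo receptors such as SQSTM1 dock. In mouse Treg cells, loss of the conjugation genes Atg5 or Atg7 is known to reduce survival and lineage stability. RNA levels do not measure autophagic flux.

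The FOXP3-low libraries held 12177761 to 14546999 counts and the FOXP3-high libraries 9048771 to 11202260. Values are CPM (counts scaled to the TMM-normalized library size), of which 1 unit rests on 8.98 to 14.3 counts. Foxp3 itself followed the labels by TMM, with 310 to 397 CPM where low and 639 to 808 CPM where high. Markers of other cell types were detected in all 7 libraries. Summed macrophage and monocyte markers, led over all 7 libraries by Apoe, Lyz2 and Ccr2, reached 2772 to 3420 CPM in FOXP3-low against 756 to 805 CPM in FOXP3-high (20 of 21 lower). Ccr2 went the other way, from 227 to 450.1 CPM on average, and in FOXP3-low Itgam (543 CPM) lay above it. Summed neutrophil markers, led by Il1b, S100a9 and Csf3r, ran from 2700.0 to 3172 against 104 to 239.9 CPM (7 of 8 tested lower, Ly6g at 0 in all 3 FOXP3-high libraries). Dendritic cell and MHC class II markers, led by H2-Ab1, Cd74 and H2-Eb1, ran from 2386 to 3674 against 196 to 323 CPM (11 of 11 lower). Melanoma and melanocyte markers, led by Dct, Tyrp1 and Gpnmb, ran from 1473 to 2647 against 3572 to 4915 CPM (13 of 13 tested higher). B cell and plasma cell markers (Igkc, Ighm, Jchain) ran from 397 to 528 against 92.8 to 123 CPM with 3 of 5 tested lower, and CD8 T cell and NK cell markers (Klrk1, Prf1, Cd8b1) from 72.5 to 97.7 against 32.3 to 45.3 CPM with 4 of 6 tested lower. The 17 T cell identity genes, led by Cd2, Cd4 and Cd3g, summed to 3194 to 3672 against 4673 to 5412 CPM (16 higher), and the 18 cell cycle markers, led by Mki67, Top2a and Mcm3, to 6095 to 6574 against 1351 to 1588 CPM (18 lower). These lists moved with the groups and so with every autophagy result given here; their part in those results was not tested. In bulk RNA, fewer cells of a type and less RNA per cell cannot be told apart.

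**Figure D1:**
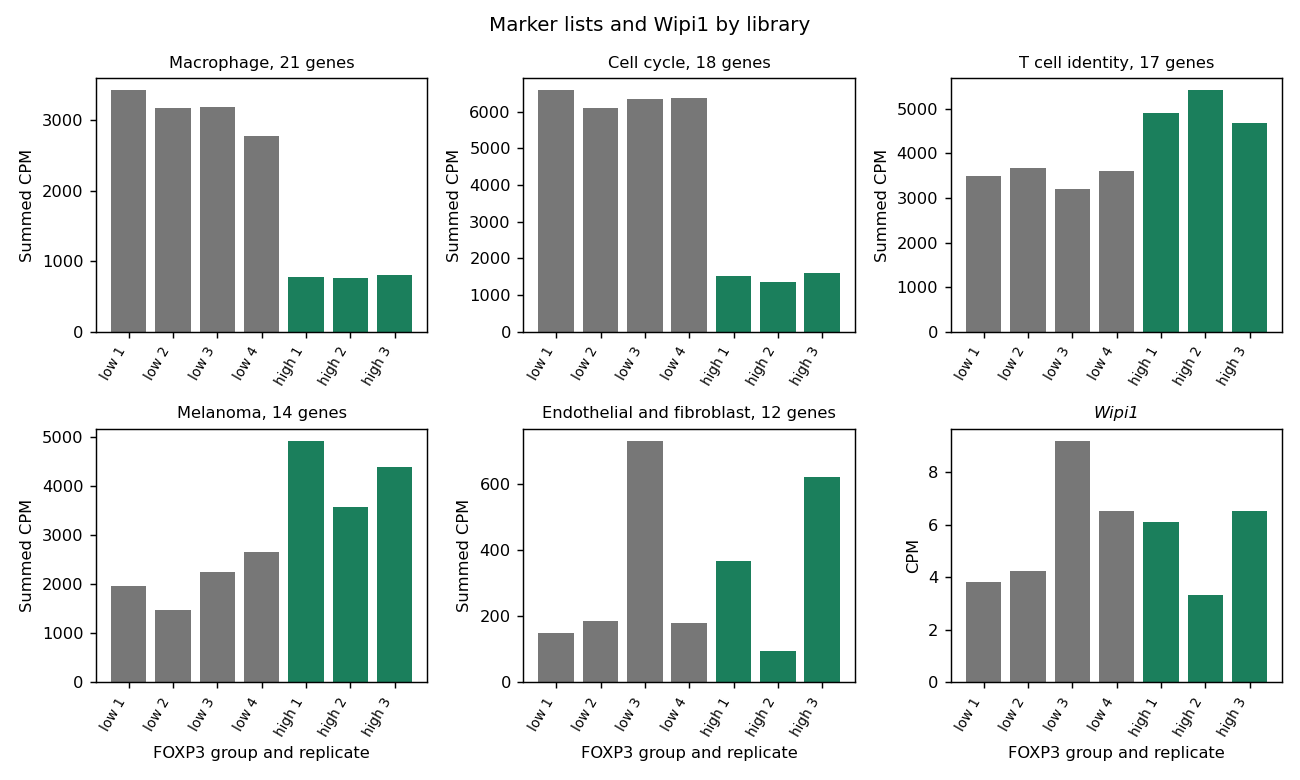
Summed CPM (y axis) of 5 marker lists, and CPM of Wipi1, in each of the 4 FOXP3-low (grey) and 3 FOXP3-high (green) libraries (x axis). Macrophage and cell cycle sums were lower, and T cell identity and melanoma sums higher, in all 3 FOXP3-high libraries, while the endothelial and fibroblast sum was highest in FOXP3-low library 3 (729 CPM) and lowest in FOXP3-high library 2 (93.4 CPM), as was Wipi1.

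The comparison asks how RNA levels of autophagy genes differ with the FOXP3 level of tumour Treg cells. By TMM scaling, most upstream kinases and lipid transfer genes of the pathway stood higher in FOXP3-high, while E1- and E2-like conjugation enzymes (Atg7, Atg3), the protease Atg4c, Uvrag, Gabarap and the receptor Optn stood lower, and the marker gene Sqstm1 did not pass the test. Genes were called at an adjusted p under 0.05 in edgeR's quasi-likelihood test, with Benjamini-Hochberg adjustment over all 15838 genes tested. Of the 39 autophagy genes tested, 18 rose in FOXP3-high (46.2%), 6 fell (15.4%) and 15 were not called. Over all genes, 46.5% were called, 21.8% higher and 24.6% lower. In 27 of the 39 autophagy genes (69.2%) the libraries of the groups did not overlap, against 50.7% of all genes. The median log2 fold change was 0.17 for the autophagy genes and 0.01 for all genes, every fold change being FOXP3-high minus FOXP3-low. The changes were small. Those that rose did so by 1.23-fold to 1.55-fold, and of the 24 called genes 1 (Atg4c) passed an absolute log2 fold change of 1, which 31.4% of all called genes passed.

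The direction of the increases rested on the scaling. When libraries were scaled to the 17 T cell identity genes instead of by TMM, all genes shifted in median by -0.52. On it, 0 of the 39 autophagy genes were called higher by edgeR (also 0 at an unadjusted p under 0.05) and 17 lower (43.6%), against 686 genes higher (4.33%) and 8492 lower (53.6%) of all. The 18 genes that rose by TMM lay above the median of all genes (-0.51) there too. Rescaling moves all genes by nearly the same amount, so this position cannot change and adds no support. The same shift applies to Foxp3, whose log2 fold change was 0.97 ± 0.11 by TMM. Log2 fold changes above 0 remained in 3 of the 18, Ulk2, Ulk3 and Atg14. All 6 genes that fell by TMM were also called lower on the T cell scale. The downward shift of all genes favours this, so falling on both scales adds no support for a decrease. "Rose" below therefore means higher relative to the TMM-normalized library, and "not called" means not called by TMM. Genes whose sign turns on the T cell scale, or that are called only there, are named with their value there. The plot of log2 fold changes by role shows both scales side by side.

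**Figure D2:**
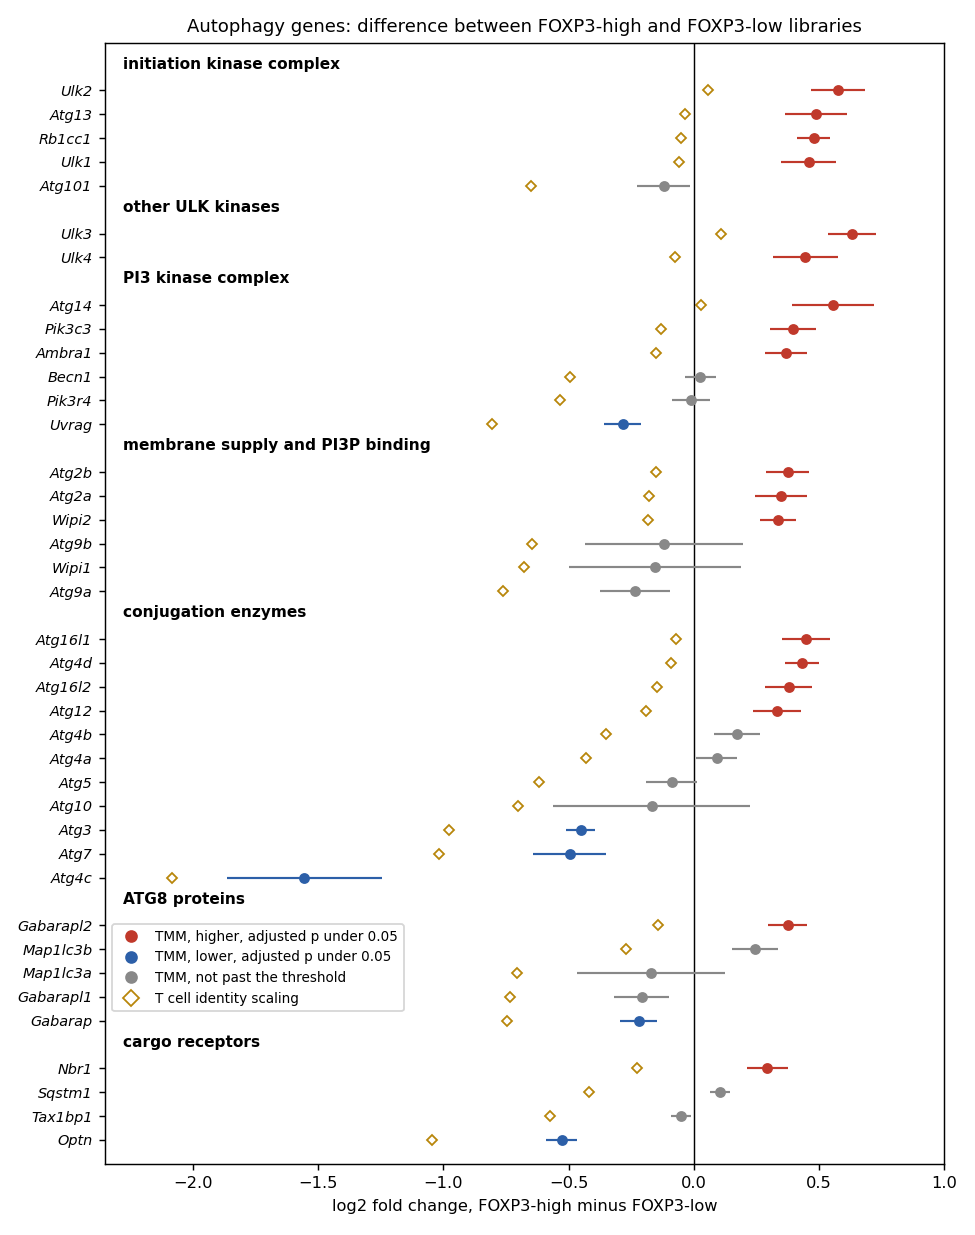
Log2 fold change, FOXP3-high minus FOXP3-low (x axis), of the 39 tested autophagy genes grouped by role (y axis), as filled points with the standard error by TMM and as open diamonds with T cell identity scaling. By TMM 18 genes lie right of 0 and called (red) and 6 left of 0 and called (blue); with T cell identity scaling 3 of the 18 (Ulk2, Ulk3, Atg14) stay right of 0.

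Levels were ranked between genes per length, as TPM from the deposited gene lengths. The ranks rest on those lengths, which are 7517 bases for Map1lc3b, 7065 for Becn1 and 1844 for Gabarap. Whether they match the transcripts made in these cells was not tested. In FOXP3-low the highest were the receptors Sqstm1 (289 ± 3.14 TPM, SD, n = 4) and Tax1bp1 (276 ± 3.80 TPM), then Atg3 (187 ± 10.7 TPM), Optn (83.6 ± 3.64 TPM), Gabarap (73.7 ± 3.42 TPM) and Becn1 (56.6 ± 3.03 TPM). Further down, Atg5 (37.1 ± 2.29 TPM), Gabarapl2 (37.1 ± 1.43 TPM) and Gabarapl1 (36.9 ± 4.64 TPM) were neighbours that did not differ beyond their spread. The lowest levels were those of Wipi1 (4.12 ± 1.73 TPM), Atg10 (3.21 ± 0.818 TPM) and Atg9b (1.81 ± 0.369 TPM). Atg7, at 5.89 ± 0.530 TPM, was also among the 5 lowest.

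The promoters of Atg3, Atg5 and Ulk2 are shown because they carry the motifs searched for at genes with different outcomes. The sequences and starts are RefSeq's on GRCm38.p6, and 33 of the 41 genes matched a promoter window (37 windows of 250 bases before a start, 30 of which have their start within 500 bases of the GENCODE M21 gene start on the same build). Capitals mark motif matches, and each stretch ends before the earlier of both starts. Atg3 (chr16:45158579-45158784, plus strand), which fell, holds the E-box of the TFEB and MITF transcription factors, CACGTG, at 94 and 71 bases before the RefSeq start. Atg5 (chr10:44268089-44268338, plus strand), which was not called, holds it at 14 bases before the start. Ulk2 (chr11:61855093-61855342, minus strand), which rose by TMM and whose log2 fold change was 0.06 on the T cell scale, holds the core antioxidant response motif TGACNNNGC at 17 bases before the start.
Atg3: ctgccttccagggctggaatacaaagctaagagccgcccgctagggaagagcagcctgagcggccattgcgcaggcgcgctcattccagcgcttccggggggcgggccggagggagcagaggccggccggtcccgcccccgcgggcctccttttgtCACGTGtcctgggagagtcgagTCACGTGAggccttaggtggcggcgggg
Atg5: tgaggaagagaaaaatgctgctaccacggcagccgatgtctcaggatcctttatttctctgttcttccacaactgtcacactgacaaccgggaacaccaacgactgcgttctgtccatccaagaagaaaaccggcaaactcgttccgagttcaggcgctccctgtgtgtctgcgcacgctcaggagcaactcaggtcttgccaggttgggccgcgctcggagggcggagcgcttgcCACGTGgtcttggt
Ulk2: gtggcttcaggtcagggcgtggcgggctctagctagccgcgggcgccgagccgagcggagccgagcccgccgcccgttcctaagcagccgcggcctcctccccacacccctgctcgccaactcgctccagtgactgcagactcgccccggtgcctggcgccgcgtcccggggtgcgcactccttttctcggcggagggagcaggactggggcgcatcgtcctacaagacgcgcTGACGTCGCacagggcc

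Motifs were read on both strands of the 250 bases. CACGTG was in 3 of the 37 autophagy windows (8.11%), those of Atg3, Atg5 and Atg7, against 7.96% of the windows of all tested genes. The Atg7 window belongs to a RefSeq start 27999 bases inside the GENCODE gene and is not shown. The longer form TCACGTGA, which contains CACGTG and is known from the lysosome and autophagy gene network of TFEB, was in 1 window (Atg3, 2.70%, the second of its E-boxes) against 1.47%. TGACNNNGC was in 3 windows (Atg13, Tax1bp1 and Ulk2, 8.11%) against 11.6%. The forkhead core TGTTTAC and the AP-1 motif TGANTCA were in 0 of the 37, against 2.33% and 4.71%. These shares lie close to those of tested genes at this number of windows, and a match is a description of the letters only.

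In the initiation complex, which phosphorylates the first autophagy substrates, 4 of 5 genes rose by TMM and 1 was not called; on the T cell scale Atg13, Rb1cc1 and Ulk1 turned to values of -0.04, -0.05 and -0.06 and Ulk2 stayed at 0.06. Beside this count and those of each role below, 21.8% of all genes were called higher and 24.6% lower by TMM. Each role holds only 2 to 11 genes, so these counts describe the genes and not a step of the pathway. Rb1cc1, which encodes FIP200, the scaffold of the complex, was at 150.4, 150.3, 143 and 139.6 CPM in FOXP3-low libraries 1 to 4 and at 194, 225 and 190.4 CPM in FOXP3-high libraries 1 to 3. The groups did not overlap, FOXP3-high library 2 being the highest, and the log2 fold change was 0.48 ± 0.07 (edgeR adjusted p = 0.000273). Ulk2, a kinase related to Ulk1, was at 15.3, 15.5, 14.7 and 12.6 against 23.0, 19.6 and 22.2 CPM, again without overlap (0.57 ± 0.11, edgeR adjusted p = 0.0018). Ulk1, the kinase that names the complex, was at 20.8, 19.0, 18.1 and 24.7 against 28.7, 27.3 and 28.97 CPM. All 3 FOXP3-high values of Ulk1 lay above FOXP3-low library 4, the highest of its group (0.46 ± 0.11, edgeR adjusted p = 0.00765). Atg13, the regulatory subunit that recruits the kinase, was at 9.26, 8.30, 9.04 and 7.70 against 12.3, 11.8 and 11.99 CPM, with tight and separate groups (0.49 ± 0.12, edgeR adjusted p = 0.00992). Atg101, the partner that stabilizes ATG13, was not called by TMM, with 25.4 ± 3.06 against 23.4 ± 0.776 CPM (-0.12 ± 0.11, edgeR adjusted p = 0.382). On the T cell scale it was called lower (-0.65, edgeR adjusted p = 0.00296).

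Ulk3 and Ulk4 share the kinase family name, but ULK4 is a pseudokinase not known as part of the initiation complex. Both rose by TMM; on the T cell scale Ulk3 stayed at 0.11 and Ulk4 turned to -0.08. Ulk3 was at 20.6, 23.1, 19.4 and 23.8 CPM in FOXP3-low and at 32.8, 36.3 and 31.8 CPM in FOXP3-high. The groups were separate, and 0.63 ± 0.10 was the largest increase among the 39 genes (edgeR adjusted p = 0.000517). Ulk4 was at 12.2, 12.9, 15.7 and 12.9 against 20.03, 15.6 and 19.1 CPM, so FOXP3-high library 2 lay just below FOXP3-low library 3 (0.44 ± 0.13, edgeR adjusted p = 0.0187). The call was lost without FOXP3-high library 1 (edgeR adjusted p = 0.109) or 3 (0.0579). Ulk4 overlaps Ctnnb1 on the opposite strand, which held 886% as many counts as Ulk4 and rose by 0.34 ± 0.09, and whether reads of the pair were kept apart is unknown.

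The PI3 kinase complex, which makes the lipid PI3P on the growing membrane, was split. Ambra1, Pik3c3 and Atg14 rose by TMM, Uvrag fell, and Becn1 and Pik3r4 were not called; on the T cell scale Ambra1 (-0.15), Pik3c3 (-0.13) and Becn1 (-0.49) turned below 0 and Atg14 stayed at 0.03. Ambra1, which tethers the complex and activates it, was at 38.9, 43.0, 38.6 and 47.0 against 52.4, 56.1 and 53.7 CPM (0.37 ± 0.08, edgeR adjusted p = 0.00534). Pik3c3, the lipid kinase VPS34, was at 50.1, 58.3, 52.7 and 50.3 against 66.0, 79.2 and 63.7 CPM (0.40 ± 0.09, edgeR adjusted p = 0.00597). Neither gene's groups overlapped, and FOXP3-high library 2 was the highest for both.

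ATG14 and UVRAG bind BECN1 in alternative complexes, the first acting in autophagosome formation and the second mainly in endosome and autophagosome maturation. Atg14 was at 12.5, 17.2, 13.5 and 16.1 CPM in FOXP3-low and at 18.2, 27.3 and 20.01 CPM in FOXP3-high. FOXP3-high library 2 stood well above the others, and without it the increase of 0.56 ± 0.16 (edgeR adjusted p = 0.0192) became 0.39 and missed the threshold (edgeR adjusted p = 0.0634). Uvrag was at 32.3, 29.5, 30.0 and 28.9 against 24.8, 24.8 and 24.7 CPM. Its 3 FOXP3-high values were almost equal and below every FOXP3-low value (-0.29 ± 0.07, edgeR adjusted p = 0.00988). The ratio of Uvrag to Atg14 counts, which no scaling of libraries changes, was 1.71 to 2.58 in FOXP3-low against 0.91 to 1.36 in FOXP3-high. This pair and those below were chosen after their values were seen, so that their ratios describe these libraries and carry no test. Of the shared subunits, Becn1 stood at 131 ± 7.41 and 133 ± 5.95 CPM (edgeR adjusted p = 0.756) and Pik3r4, the VPS15 scaffold, at 26.4 ± 1.17 and 26.2 ± 1.02 CPM (edgeR adjusted p = 0.919). On the T cell scale both were called lower, at -0.49 and -0.54 (edgeR adjusted p = 0.000137 and 0.00103). Becn1 overlaps Cntd1 on the opposite strand, which held 10.4% as many counts.

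Among genes that supply lipid or bind PI3P, Wipi2, Atg2b and Atg2a rose by TMM and turned to -0.19, -0.15 and -0.18 on the T cell scale, while Atg9a, Atg9b and Wipi1 were not called. Wipi2, the PI3P reader that recruits ATG16L1, was at 32.2, 32.8, 29.3 and 31.4 against 39.9, 41.0 and 38.2 CPM (0.34 ± 0.07, edgeR adjusted p = 0.00362). Atg2b and Atg2a encode a pair of lipid transfer proteins that feed the growing membrane. Atg2b was at 47.7, 38.1, 41.6 and 40.1 against 54.3, 56.1 and 52.4 CPM (0.37 ± 0.09, edgeR adjusted p = 0.00538), and it overlaps Gskip on the opposite strand, with 20.2% as many counts. Atg2a was at 49.1, 52.5, 42.4 and 41.5 against 57.3, 65.8 and 54.1 CPM (0.35 ± 0.10, edgeR adjusted p = 0.021), a call lost without FOXP3-low library 3 (edgeR adjusted p = 0.0502) or FOXP3-high library 1 (0.0605) or 2 (0.0592). In none of the 3 did the groups overlap, with FOXP3-high library 3 the lowest of its group each time. Atg9a, the lipid scramblase partner of ATG2, stood at 11.2 ± 0.328 and 9.55 ± 1.49 CPM (-0.23 ± 0.14, edgeR adjusted p = 0.201), and it shares its strand with Gm29253, which held 89.3% as many counts. On the T cell scale Atg9a was called lower (-0.76, edgeR adjusted p = 0.000916). Atg9b overlaps Nos3 on the opposite strand, which held 76.8% as many counts. Wipi1 ran from 3.82 to 9.18 CPM in FOXP3-low and from 3.34 to 6.51 CPM in FOXP3-high (-0.16 ± 0.35, edgeR adjusted p = 0.747). Its highest library (FOXP3-low 3) and its lowest (FOXP3-high 2) were also the highest and the lowest in the sum of 12 endothelial and fibroblast markers, led by Pecam1, Col3a1 and Cdh5, at 729 and 93.4 CPM; the part of such cells in Wipi1 was not tested. Without either library its log2 fold change turned to 0.13 or 0.11. Of those markers, 0 of 10 tested were called by edgeR, and 0 passed an unadjusted p of 0.05.

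**Figure D3:**
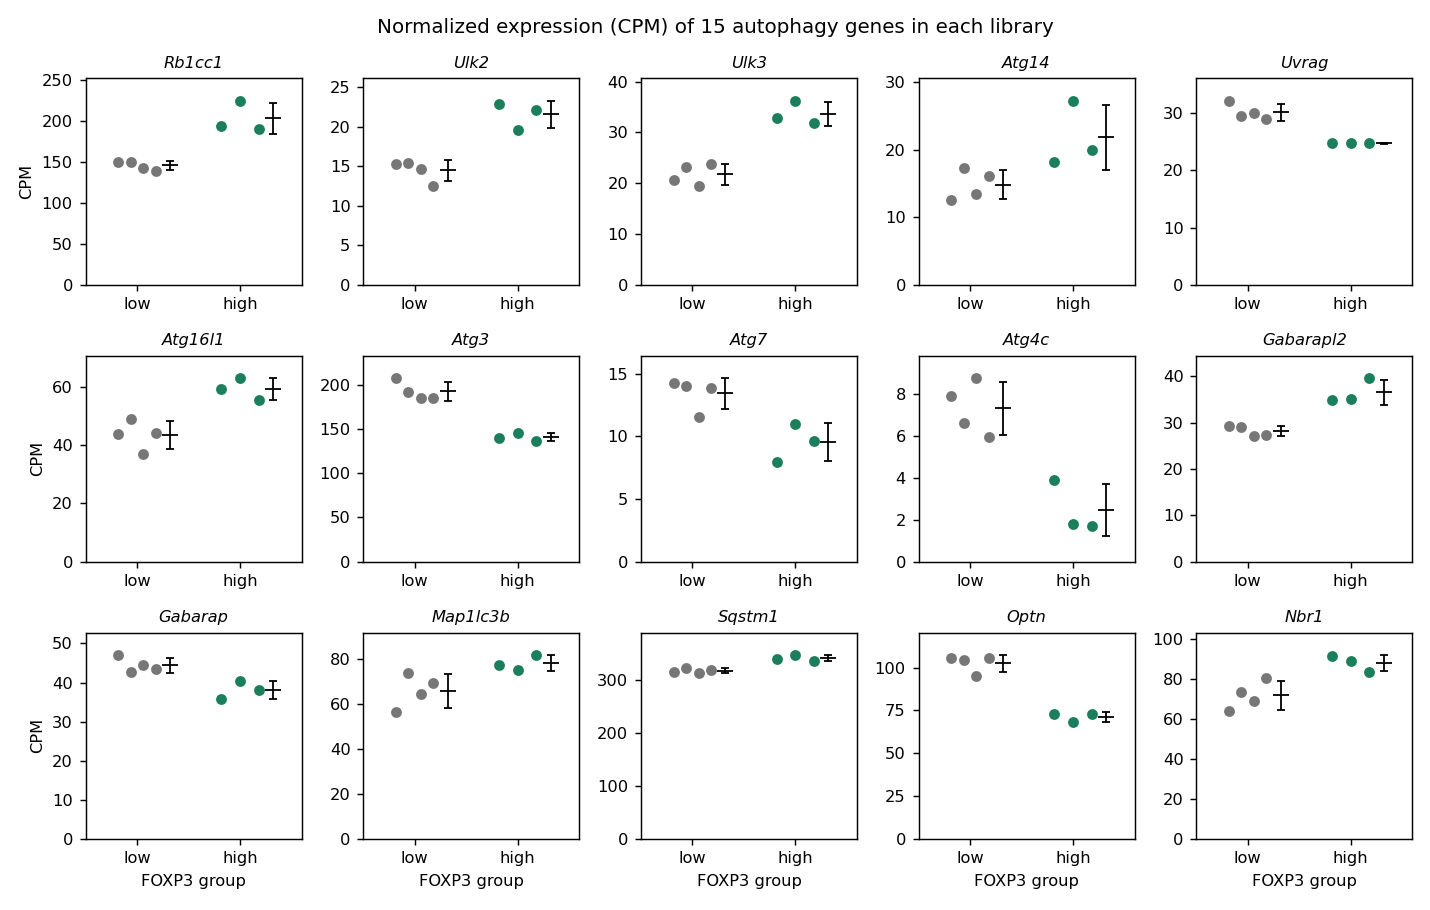
CPM (y axis, from 0) of 15 autophagy genes in each FOXP3-low (grey) and FOXP3-high (green) library. The mean and SD of each group stand beside the points. The 15 are a selection in which the groups of libraries overlap for no gene. Such separation held for 69.2% of the tested autophagy genes and for 50.7% of all tested genes. Becn1, Atg5, Tax1bp1, Ulk4 and Atg101, whose groups overlap, are among those not shown. Uvrag, Atg3, Atg7, Atg4c, Gabarap and Optn are lower in all 3 FOXP3-high libraries, and the other 9 lie above every FOXP3-low library by TMM, although Map1lc3b and Sqstm1 were not called; on the T cell scale all of these but Ulk2, Ulk3 and Atg14 have a log2 fold change below 0.

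The conjugation enzymes held both the largest decrease and 4 increases. Of 11 genes, Atg16l1, Atg4d, Atg16l2 and Atg12 rose by TMM (on the T cell scale -0.07, -0.09, -0.15 and -0.19), Atg3, Atg4c and Atg7 fell on both scales, and Atg5, Atg4a, Atg4b and Atg10 were not called. ATG7 is the E1-like enzyme that activates both ubiquitin-like proteins, ATG12 and ATG8. Atg7 (ENSMUSG00000030314, chromosome 6, 114620058 to 114837575, plus strand, GRCm39) was at 14.3, 13.99, 11.6 and 13.9 CPM in FOXP3-low and at 7.996, 11.02 and 9.63 CPM in FOXP3-high. The groups did not overlap, although FOXP3-low library 3 and FOXP3-high library 2 came within 1 CPM of each other. The log2 fold change of -0.50 ± 0.15 (edgeR adjusted p = 0.0197) stayed negative when any library was left out, but missed the threshold without FOXP3-low library 1, 2 or 4 or FOXP3-high library 1 (edgeR adjusted p between 0.0514 and 0.0629). Over 16 alternatives other than the T cell scale and a fold threshold, the adjusted p of Atg7 ran from 0.0102 to 0.0629.

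ATG3 is the E2-like enzyme that passes ATG8 proteins to lipid. Atg3 was at 208, 192, 185 and 185 CPM in FOXP3-low and at 139, 146 and 137 CPM in FOXP3-high, a gap far wider than the spread of either group (-0.45 ± 0.06, edgeR adjusted p = 0.000149). ATG4 proteases trim ATG8 proteins before lipidation and release them afterwards. Their 4 genes went different ways. Atg4c was at 7.88, 6.59, 8.76 and 5.94 against 3.87, 1.78 and 1.70 CPM, a 2.94-fold decrease at low counts (-1.56 ± 0.31, edgeR adjusted p = 0.00253). FOXP3-high library 1 held more than the other FOXP3-high libraries together, and without it the log2 fold change of Atg4c was -2.09. Atg4d was at 61.8, 61.1, 56.5 and 55.9 against 83.4, 80.8 and 73.7 CPM (0.43 ± 0.07, edgeR adjusted p = 0.000744), but it overlaps Kri1 on the opposite strand, which held 356% as many counts and rose by 0.33 ± 0.05. Atg4a stood at 28.0 ± 2.20 and 29.8 ± 0.525 CPM (edgeR adjusted p = 0.405) and Atg4b, the main LC3 protease, at 18.8 ± 0.752 and 21.1 ± 1.91 CPM (edgeR adjusted p = 0.16), with log2 fold changes of 0.09 and 0.17 by TMM and of -0.43 and -0.35 on the T cell scale. Both Atg4a and Atg4b were called lower on the T cell scale (edgeR adjusted p = 0.00427 and 0.0436). Atg4b overlaps Thap4 on the opposite strand, with 47.8% as many counts.

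ATG12, ATG5 and ATG16L1 form the E3-like complex that places ATG8 proteins on the membrane. Atg16l1 was at 43.9, 48.8, 37.1 and 44.0 against 59.2, 63.1 and 55.4 CPM, without overlap (0.45 ± 0.10, edgeR adjusted p = 0.00391). Its paralogue Atg16l2 rose from 43.1 ± 3.63 to 56.0 ± 6.06 CPM (0.38 ± 0.09, edgeR adjusted p = 0.00888), and Fchsd2 on the opposite strand, which held 124% as many counts, rose by 0.56 ± 0.06. Atg12 rose from 20.5 ± 1.81 to 25.8 ± 1.76 CPM (0.33 ± 0.10, edgeR adjusted p = 0.0183), a call lost without FOXP3-high library 1 (edgeR adjusted p = 0.0981) or with no filter on low counts (0.0626). Atg5, the protein to which ATG12 is joined, was not called by TMM, at 28.5 ± 1.80 and 26.8 ± 3.45 CPM (edgeR adjusted p = 0.507). On the T cell scale it was called lower (-0.62, edgeR adjusted p = 0.000451). Atg10, the E2-like enzyme for ATG12, was near 1.8 ± 0.457 and 1.61 ± 0.739 CPM, too few counts to place it (-0.17 ± 0.39, edgeR adjusted p = 0.76). Within each library, Atg3 stood lower relative to Atg12, and Atg7 relative to Atg16l1, in FOXP3-high. The ratio of Atg3 to Atg12 counts was 8.62 to 11.6 in FOXP3-low against 5.15 to 5.75 in FOXP3-high, and that of Atg7 to Atg16l1 counts 0.287 to 0.326 and 0.135 to 0.175.

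The ATG8 family, the ubiquitin-like proteins that are joined to the membrane, held changes in both directions. Gabarapl2 rose by TMM (-0.14 on the T cell scale), Gabarap fell on both scales, and Map1lc3b, Gabarapl1 and Map1lc3a were not called. Gabarapl2, also known as GATE-16, was at 29.2, 29.04, 27.1 and 27.4 against 34.8, 35.1 and 39.7 CPM (0.37 ± 0.08, edgeR adjusted p = 0.00325). Gabarap was at 47.1, 42.6, 44.5 and 43.4 against 35.8, 40.4 and 38.1 CPM (-0.22 ± 0.07, edgeR adjusted p = 0.0317). The groups were separate for both genes, but Gabarap lost its call in 11 of the 16 alternatives (edgeR adjusted p up to 0.107), among them leaving out any library but FOXP3-high library 2. Map1lc3b, which encodes the widely used autophagosome marker LC3B, ran from 56.1 to 73.9 CPM in FOXP3-low and from 74.9 to 81.8 CPM in FOXP3-high. It just missed the threshold (0.24 ± 0.09, edgeR adjusted p = 0.0535) and passed it in 8 of those alternatives, but turned to -0.27 on the T cell scale (edgeR adjusted p = 0.0579). Gabarapl1, which overlaps 1700101I11Rik on the opposite strand with 35.9% as many counts, stood at 24.3 ± 3.02 and 21.01 ± 0.122 CPM (edgeR adjusted p = 0.147). On the T cell scale it was called lower (-0.74, edgeR adjusted p = 0.00147). Map1lc3a was low, at 3.003 ± 0.940 and 2.68 ± 0.289 CPM (edgeR adjusted p = 0.673).

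As shares of the family's summed TPM, Gabarap made up 40.4% ± 0.856 in FOXP3-low against 34.8% ± 1.58 in FOXP3-high, and Gabarapl2 20.4% ± 1.008 and 26.4% ± 1.41. Both shares were separate between the groups, and the ratio of Gabarap to Gabarapl2 counts was 1.47 to 1.65 against 0.96 to 1.15. Map1lc3b made up 14.8% ± 2.07 and 17.4% ± 0.708, with overlapping groups, as did Gabarapl1 (20.2% ± 2.16 and 17.6% ± 0.666) and Map1lc3a (4.25% ± 1.27 and 3.82% ± 0.425). Gabarap was the most abundant of the 5 per length in all 7 libraries. This order and the shares depend on the deposited lengths, 1844 bases for Gabarap and 7517 for Map1lc3b. By CPM, which takes no account of length, Map1lc3b stood above Gabarap, at 65.9 ± 7.55 against 44.4 ± 1.96 CPM in FOXP3-low. In FOXP3-high the values were 78.0 ± 3.51 and 38.1 ± 2.28 CPM.

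**Figure D4:**
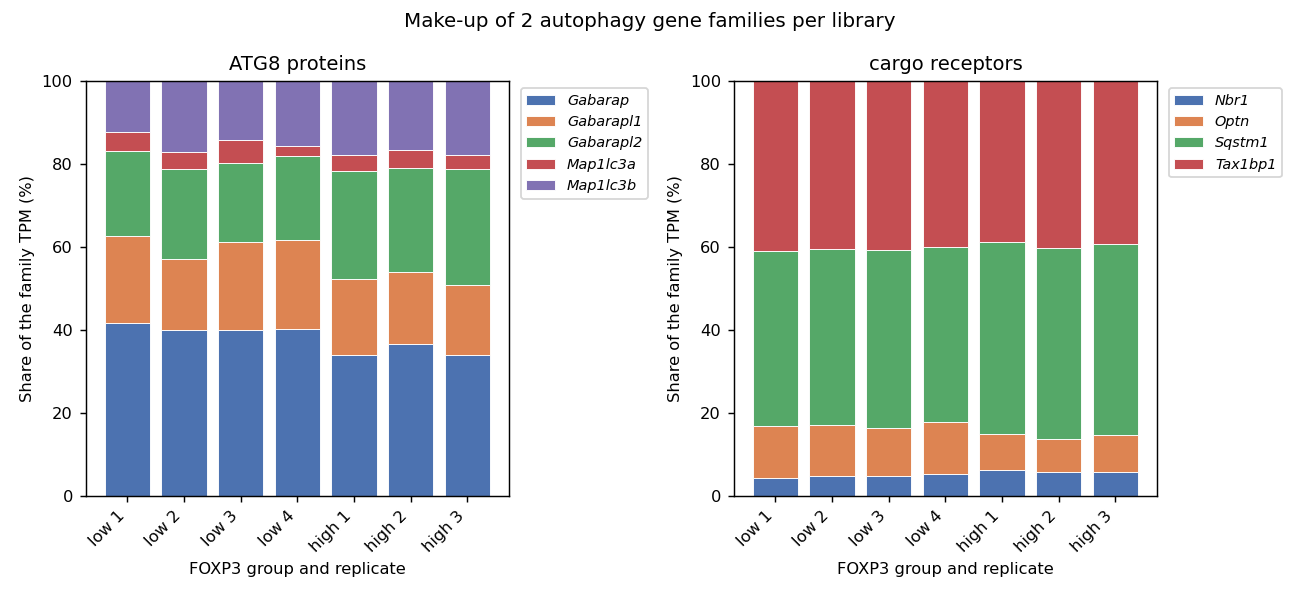
Share of the summed TPM of the family (y axis, percent) in each of the 7 libraries (x axis), for the 5 ATG8 genes (left) and 4 cargo receptors (right). In all 3 FOXP3-high libraries Gabarap (34.8% ± 1.58) and Optn (8.61% ± 0.493) take smaller shares, and Gabarapl2 (26.4% ± 1.41), Sqstm1 and Nbr1 larger ones, than in any FOXP3-low library.

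Cargo receptors bind ubiquitinated material and ATG8 proteins together. Of the 4, Optn fell on both scales, Nbr1 rose by TMM (-0.23 on the T cell scale, called lower there at an edgeR adjusted p of 0.0482), and Sqstm1 and Tax1bp1 were not called. Optn, the receptor optineurin, which acts on damaged mitochondria and intracellular bacteria, was at 105, 104, 95.3 and 105 CPM in FOXP3-low and at 72.7, 68.0 and 72.7 CPM in FOXP3-high. This was the smallest adjusted p of the 39 genes (-0.53 ± 0.06, edgeR adjusted p = 9.0e-05), and the transcript 4930551O13Rik on the opposite strand held 10.9% as many counts. Nbr1, a receptor for protein aggregates and peroxisomes, was at 64.1, 73.7, 68.8 and 80.7 against 91.7, 88.8 and 83.5 CPM (0.29 ± 0.08, edgeR adjusted p = 0.016). FOXP3-low library 4 came close to FOXP3-high library 3, and without FOXP3-high library 1 the call was lost (edgeR adjusted p = 0.0904).

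Sqstm1 (p62; ENSMUSG00000015837, chromosome 11, 50090193 to 50101592, minus strand, GRCm39) was at 314, 322, 312 and 319 CPM in FOXP3-low and at 340, 348 and 336 CPM in FOXP3-high. All 3 FOXP3-high libraries lay above all 4 FOXP3-low libraries, but the difference was small. The fold change was 1.07 (0.10 ± 0.04 on the log2 scale, edgeR adjusted p = 0.0514), it passed the threshold in 6 of the 16 alternatives, and on the T cell scale its value turned to -0.42 (edgeR adjusted p = 0.000228). Tax1bp1, the receptor with the most counts, stood at 901 ± 15.5 and 870 ± 33.1 CPM (-0.05 ± 0.04, edgeR adjusted p = 0.345). On the T cell scale it was called lower (-0.57, edgeR adjusted p = 1.33e-05). Of the summed receptor TPM, Optn took 12.3% ± 0.402 in FOXP3-low against 8.61% ± 0.493 in FOXP3-high, Sqstm1 42.5% ± 0.361 and 46.1% ± 0.160, and Nbr1 4.70% ± 0.415 and 5.81% ± 0.253, none with overlap. The ratio of Optn to Sqstm1 counts was 0.305 to 0.335 against 0.196 to 0.216. Relative to Sqstm1, Optn stood lower in each FOXP3-high library. No scaling of libraries can change a count ratio, and the pair was chosen after its values were seen, so this carries no test.

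Other genes of the pathway came from lists fixed with the design. Of all genes, 21.8% were called higher and 24.6% lower by TMM, and 4.33% and 53.6% on the T cell scale. Autophagosome biogenesis genes beside the 39 showed 5 higher and 3 lower of 15 by TMM (2 higher and 10 lower on the T cell scale), with a median of 0.16 against 0.01 over all genes. The 53.3% called by TMM stood near the 46.5% of all genes. Tecpr1, a tether between autophagosome and lysosome, rose by 0.94 (edgeR adjusted p = 3.75e-06), and Bcl2, which binds BECN1 and holds it inactive, by 0.98 (edgeR adjusted p = 2.84e-05); both also rose on the T cell scale. Vcp, the segregase p97, fell (-0.38, edgeR adjusted p = 0.00018), and Rab33b, a GTPase that recruits ATG16L1, rose by 0.65 (edgeR adjusted p = 0.00109; 0.12 and not called on the T cell scale). Bcl2 and Rab33b overlap D630008O14Rik and Gm38160 on the opposite strand with at least 10% as many counts.

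Among other selective autophagy receptors, 8 were higher and 7 lower of 20 by TMM (1 and 12 on the T cell scale), with a median of 0.07. By TMM 75.0% were called, against 46.5% of all genes. Calcoco1, a receptor for the endoplasmic reticulum and Golgi, rose by 0.90 (edgeR adjusted p = 2.2e-05) and was the 1 gene higher on both scales. Nufip1, known as a ribosome receptor, fell (-0.93, edgeR adjusted p = 1.12e-05), as did Wdfy3, the aggregate adaptor ALFY (-1.67, edgeR adjusted p = 6.03e-05). Ccpg1, an endoplasmic reticulum receptor that shares its strand with Gm44503, rose by 0.41 by TMM (edgeR adjusted p = 7.36e-05) and stood at -0.12 on the T cell scale.

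Regulators upstream of the ULK1 complex showed 7 higher and 3 lower of 23 by TMM (2 and 11 on the T cell scale), with a median of 0.19. The 43.5% called lay near the 46.5% of all genes. Sesn3 and Sesn1, sestrins that restrain mTORC1, rose by 0.81 and 0.87 (edgeR adjusted p = 6.8e-06 and 9.79e-05) and were also higher on the T cell scale. Tsc2, which holds mTORC1 inactive, rose by 0.58 (edgeR adjusted p = 0.000552; 0.06 and not called on the T cell scale) and overlaps Pkd1 on the opposite strand. Ddit4, another mTORC1 inhibitor, fell (-0.55, edgeR adjusted p = 0.00109). Within the TFEB family and FOXO regulators, 5 were higher and 3 lower of 11 by TMM (1 and 6 on the T cell scale), with a median of 0.21. By TMM 72.7% were called, against 46.5% of all genes. Of the factors that bind the E-box shown for Atg3 and Atg5, named after their values were seen, Tfeb stood at 18.4 ± 0.489 and 18.4 ± 1.124 CPM (edgeR adjusted p = 0.995). Tfe3 was not called either, at 25.3 ± 2.21 and 23.4 ± 3.44 CPM (-0.12, edgeR adjusted p = 0.455). Mitf, which is also among the melanoma markers that rose with it, went from 49.9 ± 7.99 to 90.0 ± 4.45 CPM (0.85 ± 0.11, edgeR adjusted p = 0.000238), and the part of melanoma RNA in it was not tested. Foxo4 and Zkscan3, a repressor of autophagy genes, rose by 0.68 and 0.59 by TMM (edgeR adjusted p = 1.28e-05 and 6.09e-05; 0.16 and 0.07, not called, on the T cell scale). Fnip2, a folliculin partner, fell (-1.91, edgeR adjusted p = 9.29e-06), and Tfec, a myeloid member of the TFEB family, was at 2.60 to 4.31 CPM in FOXP3-low and at most 0.223 CPM in FOXP3-high (edgeR adjusted p = 2.68e-05).

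Downstream of the autophagosome, fusion genes showed 5 higher and 5 lower of 18 by TMM (0 and 15 on the T cell scale), with a median of -0.11. The 55.6% called by TMM stood near the 46.5% of all genes, and on the T cell scale 53.6% of all genes were lower. Rab7, the late endosome GTPase, fell (-0.70, edgeR adjusted p = 5.78e-06), as did the SNARE Stx7 (-0.73, edgeR adjusted p = 0.000115) and Rubcnl, known as Pacer (-2.42, edgeR adjusted p = 0.00102). Vps16, a subunit of the HOPS tether that overlaps Pced1a on the opposite strand, rose by 0.31 by TMM (edgeR adjusted p = 0.00608) and was lower, at -0.22, on the T cell scale. Lysosome genes showed 1 higher and 15 lower of 22 by TMM (0 and 20 on the T cell scale), with a median of -0.55. By TMM 72.7% of them were called, against 46.5% of all genes, of which 24.6% were lower. Psap, the precursor of the saposins, fell (-1.86, edgeR adjusted p = 1.23e-06), as did the protease genes Ctsb (-1.30, edgeR adjusted p = 8.44e-07) and Ctsd (-0.64, edgeR adjusted p = 2.34e-05) and the hydrolase Gusb (-1.06, edgeR adjusted p = 1.28e-05). Ctsb and Ctsd overlap Fdft1 (opposite strand) and Gm49369 (same strand). The summed macrophage markers fell in the same libraries, from 2772 to 3420 CPM to 756 to 805 CPM, and their part in the lysosome result was not tested. The plot of called shares per list sets these lists beside the 39 autophagy genes.

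**Figure D5:**
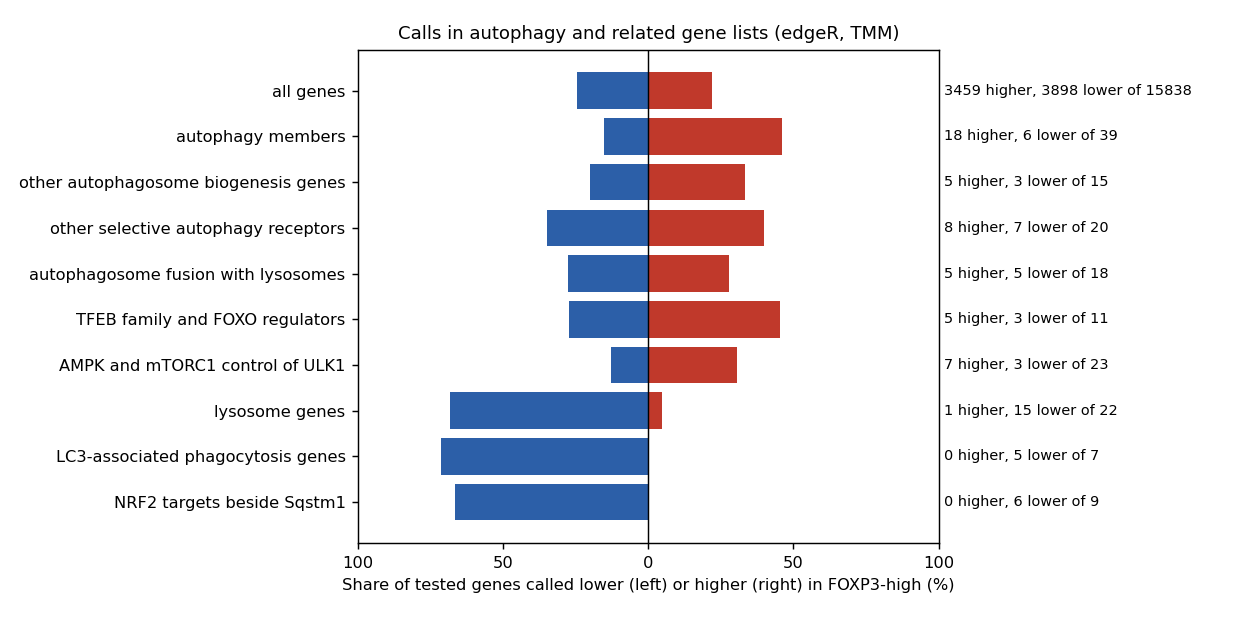
Share of tested genes called lower (bars to the left) and higher (bars to the right) in FOXP3-high by edgeR with TMM (x axis, percent) for all genes, the 39 autophagy genes and 8 related lists (y axis), with counts at the right. The autophagy genes show 18 higher and 6 lower, and lysosome genes 1 higher and 15 lower; with T cell identity scaling these become 0 and 17, and 0 and 20. Of all genes, 21.8% are higher and 24.6% lower, and 4.33% and 53.6% with T cell identity scaling.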

How the data were processed

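Stranded mRNA libraries were made from TRIzol-extracted RNA, per the labels' protocols. The authors deposited whole-number counts per gene, not normalized, with gene coordinates and length in one table. The submitters' processing notes list featureCounts, STAR 2.5.3a and fastp 0.23.4 beside GRCm39 and GRCh38; coordinates printed with genes are the deposited ones, taken as GRCm39. How strand, shared reads and duplicates were handled is not given in the sources used. Overlapping genes are therefore named where their counts reach 10% of those of a tested member or of a list gene named by the rule. Columns of sample values without a sample numbered 0.

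Groups came from the sample titles. Counts were tested in R 4.3.3 with edgeR 4.0.16 (filterByExpr minimum count 10, total 15, TMM, glmQLFit and glmQLFTest, all 7 libraries, no block), adjusted over 15838 genes at 0.05. The biological coefficient of variation was 0.178. The standard error is |log2 fold change| divided by √F, and TPM was computed from counts and the deposited length. Replicates differed by more than counting noise (chi-square per gene 3.98 to 12.2), so none looked like a copy. The fit was also run on simulated data, in which few genes were changed, equally in both directions and by larger folds than most autophagy genes here. That run does not bear on the choice of scaling. The titles do not say that numbers pair the libraries, so they were not taken as pairs. Same-numbered libraries of the 2 groups correlated at -0.23, 0.09 and 0.66 in their deviations from the group means. The 0.66, of the libraries numbered 3, was the highest between the groups, followed by 0.48. Those libraries also held the highest endothelial and fibroblast sums of their groups (728.9 and 619.0 CPM), and a shared origin was not tested.

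Members and lists were chosen with earlier results of these data known. Values in every library are given for Sqstm1, Atg7 and, per role, up to 4 genes with the smallest adjusted p under 0.05; in each pathway list up to 4 such genes are named, and 1 gene is not reported here. Map1lc3b, Becn1 and other members are given by ranges or means, and the ratios were chosen after values were seen. Tfeb, Tfe3 and Mitf were named outside the rule. Alternatives were DESeq2 1.42.0 (size factors, Wald test), upper quartile and total count scaling, T cell identity scaling (17 genes), no filter, at least 50 counts in 3 libraries, limma-voom (limma 3.58.1), glmTreat at 0.5, a replicate block, each library left out, and both libraries numbered 3 left out.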

Additional observations from a re-analysis of the deposited data

Results flagged for a closer look

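In FOXP3-low, 48 values (39 autophagy genes and 9 marker sums) were examined for a library far from the other 3, which chance gives in about 1 in 20 groups, and 5 stood out. Optn in FOXP3-low library 3 was at 95.26 CPM against 104.4 to 105.4 CPM in the others, still above every FOXP3-high library. Atg7 in the same library was at 11.57 CPM against 13.89 to 14.3 CPM, and the summed endothelial and fibroblast markers there reached 728.9 CPM against 148.5 to 184.6 CPM. Pik3r4 in FOXP3-low library 4 was at 24.59 CPM against 26.9 to 27.01 CPM. Gabarapl1 in FOXP3-low library 2 was at 19.77 CPM against 25.6 to 25.92 CPM, below all 3 FOXP3-high libraries.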

How the results depend on the processing

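T cell identity scaling left 0 autophagy genes higher and 17 lower, and on it 20 values changed sign: Atg13 (-0.0365), Rb1cc1 (-0.0500), Ulk1 (-0.0594), Ulk4 (-0.0775), Ambra1 (-0.15), Becn1 (-0.49), Pik3c3 (-0.13), Atg2a (-0.18), Atg2b (-0.15), Wipi2 (-0.19), Atg12 (-0.19), Atg16l1 (-0.0736), Atg16l2 (-0.15), Atg4a (-0.43), Atg4b (-0.35), Atg4d (-0.0926), Gabarapl2 (-0.14), Map1lc3b (-0.27), Nbr1 (-0.23) and Sqstm1 (-0.42). Elsewhere 17 values of 7 genes not called changed sign while staying uncalled: Becn1 (-0.0165 with no filter, -0.0234 to 0.0658 leaving out each library, -0.0234 without both libraries numbered 3), Pik3r4 (0.0385 by upper quartile, 0.0571 by total counts, -0.0243 to 0.0206 leaving out each library, 0.00461 without both), Atg9b (-0.31 to 0.14 leaving out each library, 0.0450 without both), Wipi1 (-0.32 to 0.13 leaving out each library), Atg10 (-0.43 to 0.17 leaving out each library, 0.20 without both), Map1lc3a (0.0573 without both) and Tax1bp1 (0.0169 by total counts). Against a null of up to 0.5 on the log2 scale (glmTreat), 0 autophagy genes were higher and 1 lower, 2755 of all genes were called (7357 without it) and 32 of the related list genes (78 without it). Leaving out each library gave 14 to 20 autophagy genes higher, 4 to 6 lower, 6392 to 6890 of all genes and 70 to 73 of the list genes; the low of 14 came without FOXP3-high library 1. With a replicate block, 18 autophagy genes were higher and 5 lower, with 7029 of all genes and 72 of the list genes called; Gabarap (edgeR adjusted p = 0.0737) and Atg13 (0.0501) lost the call and Map1lc3b (0.0413) gained it. Over the 16 alternatives other than T cell scaling and glmTreat, 14 of the 24 called genes kept the call in each (Rb1cc1, Ulk2, Ulk3, Ambra1, Pik3c3, Atg2b, Wipi2, Atg16l1, Atg16l2, Atg3, Atg4c, Atg4d, Gabarapl2, Optn). Of 699 values over all 18 alternatives, 588 kept direction and side of the threshold, 53 fell short of it and 21 came to pass it. With 3 against 4 libraries, the genes not called that had the lowest counts or the widest spread (Atg10, Atg9b, Map1lc3a, Wipi1) had standard errors of 0.30 to 0.39, so differences of that size were not detectable. Atg4c, which was called, was as imprecise, at -1.56 ± 0.31.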

Other observations

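Genes of LC3-associated phagocytosis, in which ATG8 proteins are joined to phagosomes of myeloid cells by the same conjugation enzymes, showed 0 higher and 5 lower of 7 by TMM in edgeR, with 0 higher at an unadjusted p under 0.05 (0 and 7 with T cell identity scaling), with a median log2 fold change of -0.61. Of all genes, 24.6% were lower by TMM and 53.6% with T cell identity scaling. The NADPH oxidase genes Cybb (-2.76, edgeR adjusted p = 1.24e-06) and Ncf1 (-3.60, edgeR adjusted p = 2.27e-06) fell, as did Cyba (-0.61, edgeR adjusted p = 6.25e-05), which T cells also express. Ncf1 overlaps Gtf2ird2 on the opposite strand. The summed neutrophil markers went the same way, from 2700.0 to 3172 CPM in FOXP3-low to 104 to 239.9 CPM in FOXP3-high. So did the macrophage sum (2772 to 3420 against 756 to 805 CPM) and the dendritic cell sum (2386 to 3674 against 196 to 323 CPM). The part of such cells in this result was not tested.

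NRF2, the oxidative stress factor that SQSTM1 releases from KEAP1, and its targets showed 0 higher and 6 lower of 9 tested by TMM in edgeR, with 0 higher at an unadjusted p under 0.05 (0 and 8 with T cell identity scaling). The shares of all genes called lower were 24.6% by TMM and 53.6% with T cell identity scaling. Slc7a11, the cystine transporter, fell (-4.15, edgeR adjusted p = 3.18e-07), as did Hmox1, the haem oxygenase (-2.88, edgeR adjusted p = 3.32e-06), Nfe2l2, which encodes NRF2 (-1.38, edgeR adjusted p = 4.01e-06), and Txnrd1, a thioredoxin reductase (-0.77, edgeR adjusted p = 5.17e-06). Sqstm1, itself known as an NRF2 target, did not follow this direction by TMM (0.10, edgeR adjusted p = 0.0514) and stood at -0.42 with T cell identity scaling. Summed macrophage markers (2772 to 3420 against 756 to 805 CPM) and neutrophil markers (2700 to 3172 against 104 to 239.9 CPM) were also lower in FOXP3-high. Their part in the NRF2 result was not tested.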
